A study of Mus musculus with 12 samples.

Results

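The genes described here are those of the heme synthesis pathway, with the adult globins whose protein carries the heme. They were chosen by symbol from a list of 9 genes, namely the globins Hba-a1, Hba-a2, Hbb-bs and Hbb-bt and the enzymes Alas2, Alad, Uros, Urod and Fech. The 5 enzymes had a row among the 12199 genes of the table and all 5 entered the tests. The 4 globin genes were not analysed here, and the RNA of all libraries had been treated to deplete globin mRNA before sequencing. A further 3 enzyme genes of the pathway, Alas1, Cpox and Ppox, are given beside the 5, so that 8 enzyme genes are described.

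Heme is an iron-bearing ring that gives hemoglobin its ability to carry oxygen, and most of the heme of the body is made in the erythroblasts of the BM. The pathway starts and ends in mitochondria, with the middle steps in the cytosol. It opens with aminolevulinate synthase, encoded by Alas1 in most cell types and by Alas2 in erythroid cells, where it limits the rate. Alad joins aminolevulinate into porphobilinogen. Uros closes the ring, Urod and Cpox trim its side chains, Ppox oxidises it, and Fech inserts the iron. Most of these enzymes are made at a low level in many tissues and at a high level in erythroblasts, whereas Alas2 is largely restricted to the erythroid lineage and is encoded on the X chromosome.

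RNA came from whole BM cells of C57BL/6 mice of 4 genotypes, which were compared to learn how mutations of Tet2, Dnmt3a and Flt3 act together in myeloid leukemia. The groups were WT (3 libraries), Dnmt3aFlox/+:MxCre with Flt3 ITD/+ (DF, 3 libraries), Tet2+/- with Flt3ITD/+ (TF, 3 libraries), and Tet2+/- with Flt3ITD/+, Dnmt3aFlox/+ and MxCre (TFD, 2 libraries). TFD replicate 3 was not analysed here. The study obtained WT mice from a core facility and bred the mutants by crosses. In each comparison with WT, the source of the mice cannot be told apart from genotype. Mice of all genotypes, WT included, received poly(I:C) at 8 to 10 weeks of age, and their BM was taken 8 to 9 weeks later. MxCre, an interferon-inducible recombinase, is switched on by poly(I:C) in blood cells and in other tissues that respond to interferon, while the Tet2 null allele is present from birth. The labels do not say that each library came from a separate mouse, so the p values measure the spread between these libraries only. The study's methods describe lysis of red cells for BM prepared for flow cytometry, and the RNA section does not say whether it preceded the extraction.

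In mm10, the build of the table, Alas2 is at chrX:150547417-150570622 on the plus strand. Alad is at chr4:62505984-62520063, Uros at chr7:133686355-133709295 and Urod at chr4:116990217-116994375, all on the minus strand. The promoters of Alas2 and Uros are shown because Alas2 is the member largely restricted to erythroid cells and Uros has 2 annotated starts in separate windows. Each sequence runs from 250 bases before to 50 bases after the RefSeq start (GRCm38.p6), 5′ to 3′ on the strand of the gene. Capitals mark GATA motifs (AGATAA or AGATAG, and also TGATAA or TGATAG) and the CACCC motif, each searched on both strands. No matches overlapped. They are the letters bound by the erythroid factors Gata1 and Klf1, respectively.
Alas2, chrX:150547167-150547466, plus strand: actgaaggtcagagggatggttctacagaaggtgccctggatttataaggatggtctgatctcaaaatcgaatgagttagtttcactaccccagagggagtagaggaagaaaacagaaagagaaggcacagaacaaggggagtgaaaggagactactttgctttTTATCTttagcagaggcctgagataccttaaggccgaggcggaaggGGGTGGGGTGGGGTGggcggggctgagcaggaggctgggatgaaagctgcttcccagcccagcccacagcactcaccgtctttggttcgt
Uros, upstream start, chr7:133709246-133709545, minus strand: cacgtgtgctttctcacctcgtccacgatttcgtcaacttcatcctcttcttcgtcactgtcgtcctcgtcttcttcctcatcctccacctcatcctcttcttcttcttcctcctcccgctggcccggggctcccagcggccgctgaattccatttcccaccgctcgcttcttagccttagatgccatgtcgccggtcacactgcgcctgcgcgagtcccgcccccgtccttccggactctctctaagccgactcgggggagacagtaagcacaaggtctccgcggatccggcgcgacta
Uros, downstream start, chr7:133702451-133702750, minus strand: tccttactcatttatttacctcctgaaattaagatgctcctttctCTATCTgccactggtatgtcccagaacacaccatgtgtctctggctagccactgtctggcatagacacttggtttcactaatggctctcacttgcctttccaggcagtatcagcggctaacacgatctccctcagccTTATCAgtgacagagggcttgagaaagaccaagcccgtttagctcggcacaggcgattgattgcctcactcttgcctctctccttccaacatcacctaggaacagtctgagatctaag

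The Alas2 window held 1 GATA match, its first base 86 bases before the start, and 3 CACCC matches on the opposite strand, 40, 35 and 30 bases before the start. The upstream Uros window held neither motif, and the downstream window held 2 GATA matches, 205 and 68 bases before its start. Of 32851 windows of this length in the promoter table, 29.8% held a GATA match and 57.5% a CACCC match. A match of these letters is a description and does not show binding. The windows of Alad and Urod held no GATA match. The table had 6 windows for 4 of the 5 members and none was used for Fech. The counts add all exons of a gene, so they do not tell the 2 Uros starts apart.

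The 11 libraries held between 8274153 and 15900904 counted reads. The lowest count of any of the 5 members in any library was 82 for Alas2, in DF replicate 1. Neutrophil markers summed to between 25962 and 83845 CPM (reads scaled to a common library size with edgeR's TMM factors). Of the other blood lineages, 8 B cell markers summed to between 500.3 and 652.8 CPM in WT and between 14.9 and 79.3 CPM in the mutants. The 8 monocyte markers summed to between 1844 and 1977 CPM in WT and between 5184 and 6548 CPM in the mutants. The 15 measured red cell membrane and maturation markers summed to 2954, 3100 and 3720 CPM in WT and 376.4, 515.5 and 398.9 CPM in DF. The sums were 831, 1061 and 2596 CPM in TF and 1029 and 782 CPM in TFD. TF replicate 3 therefore stood apart from the other TF libraries in red cell and B cell markers. It was, with WT replicate 3 and TFD replicate 2, among 3 libraries with at least 10000 reads of Xist, which is expressed in female cells. At the level of whole genes, log2 CPM of Dnmt3a lay between 5.25 and 5.54 in DF and 5.77 and 5.87 in TFD against 4.95 to 5.85 in WT, and log2 CPM of Tet2 between 7.09 and 7.68 in TF and 7.35 and 7.71 in TFD against 7.21 to 7.40 in WT. These totals over all exons do not report a heterozygous loss of part of a gene.

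The first question was whether heme synthesis genes differed between each mutant genotype and WT. In DF, all 5 members were lower than in WT, by between 2.29 and 6.89 fold, and no DF library reached the lowest WT library for any of them. How many of all genes separate in this way was not counted, here or below. In TFD, 4 of the 5 were lower, and in TF 2 of the 5. The count in TF was 4 without TF replicate 3 and 1 without TF replicate 1 or TF replicate 2. Across all 12175 genes tested, 16.6% were called lower in DF, 15.6% in TF and 11.6% in TFD at an adjusted p under 0.05. The median log2 fold change of all genes was 0.05, 0.02 and 0.01 in the same order, and that of the 5 members was -2.17, -0.52 and -1.02. The 3 comparisons share the WT libraries. In bulk RNA, a smaller share of erythroid cells and less RNA per erythroid cell cannot be told apart.

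**Figure D1:**
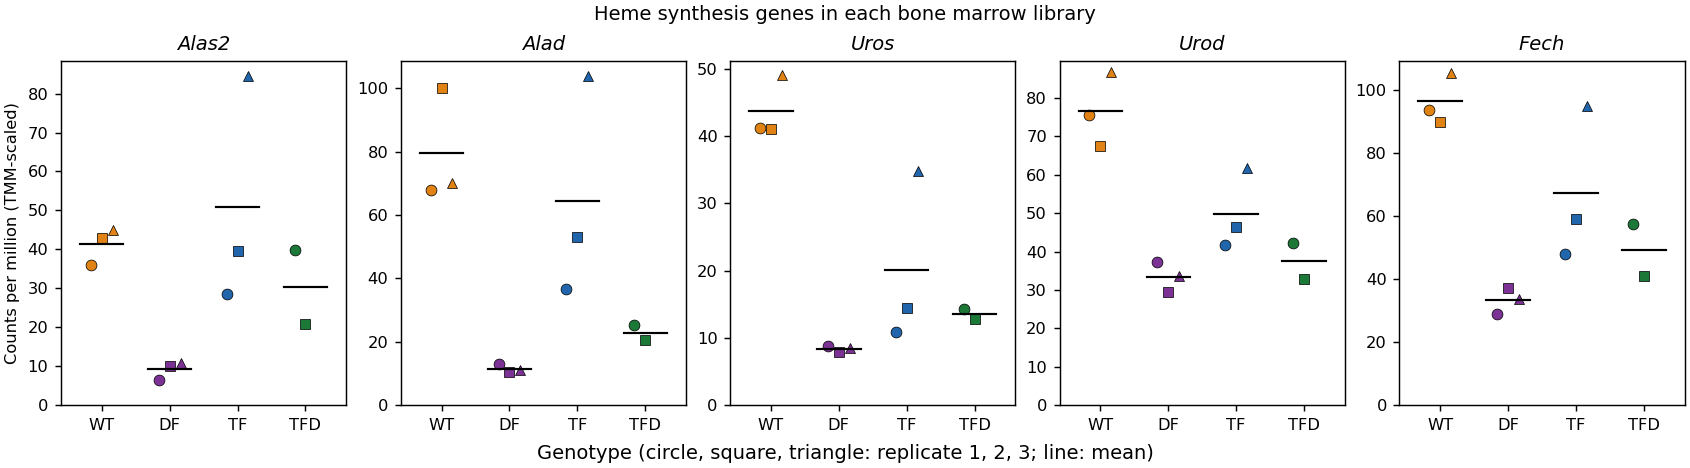
Level of each member in each library, in TMM-scaled CPM on a linear axis from 0, by genotype. Points are libraries and lines are group means. DF libraries are the lowest for Alas2, Alad, Uros and Fech, and TF replicate 3 is the highest TF library in every panel.

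Alas2, the erythroid enzyme of the first step, stood at 36.0, 42.9 and 44.9 CPM in WT and at 6.51, 10.2 and 10.8 CPM in DF. DF differed from WT by -2.17 on the log2 scale (SE 0.37, adjusted p = 0.00071, edgeR quasi-likelihood test with Benjamini-Hochberg adjustment, as for all adjusted p values here). The level was 28.5, 39.7 and 84.5 CPM in TF and 39.7 and 20.8 CPM in TFD. WT and DF did not overlap. Of the TF libraries 1 was below, 1 within and 1 above the WT range, and of the TFD libraries 1 was within and 1 below. In TF the log2 fold change of Alas2 was 0.30 (95% interval -0.43 to 1.03, adjusted p = 0.517), and without TF replicate 3 it was -0.28 (adjusted p = 0.413). In TFD it was -0.44 (95% interval -1.27 to 0.39, adjusted p = 0.434), with -0.99 (adjusted p = 0.182) without TFD replicate 1 and -0.05 (adjusted p = 0.948) without TFD replicate 2. Each such fit leaves TFD with 1 library, which is assumed to vary like those of the other genotypes. Among the libraries with at least 10000 Xist reads, Alas2 was at the top of its genotype in WT replicate 3 and TF replicate 3 and the lower of the 2 in TFD replicate 2. The intervals leave room for a fall of more than 2 fold in TFD and for a rise of about as much in TF.

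Alad, which makes the porphobilinogen that the ring is built from, stood at 67.99, 100.1 and 70.1 CPM in WT. In DF it was 12.9, 10.5 and 11.1 CPM, the largest fall of a member in that genotype (log2 fold change -2.78, SE 0.32, adjusted p = 4.71e-05). In TFD it was 25.1 and 20.7 CPM (log2 fold change -1.79, SE 0.35, adjusted p = 0.0026). Both groups lay wholly below WT. In TF the libraries spread from 36.5 and 53.1 CPM, below every WT library, to 103.9 CPM in TF replicate 3, above every WT library. In TF its log2 fold change was -0.30 (95% interval -0.92 to 0.33, adjusted p = 0.443). Without TF replicate 3 it was -0.82 (adjusted p = 0.0052), so whether Alad was called in TF depended on that library.

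Uros, which closes the ring and is deficient in congenital erythropoietic porphyria, was called in all 3 mutant genotypes and had the largest fall of the members in TF. It stood at 41.1, 41.1 and 49.1 CPM in WT, 8.81, 7.85 and 8.51 CPM in DF, 10.9, 14.5 and 34.8 CPM in TF, and 14.3 and 12.7 CPM in TFD. All 8 mutant libraries were below the lowest WT library, TF replicate 3 included. The log2 fold change was -2.38 in DF (SE 0.33, adjusted p = 0.00016), -1.69 in TFD (SE 0.36, adjusted p = 0.0044), with -1.13 for TF (SE 0.31, adjusted p = 0.013). Without TF replicate 3 the difference in TF was -1.79, over 1.5 times as large, and without TF replicate 2 it was -0.94 and missed the threshold (adjusted p = 0.0525).

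Urod, which removes carboxyl groups from the ring, was also called in all 3 genotypes, with smaller changes. It stood at 75.6, 67.4 and 86.8 CPM in WT, 37.4, 29.5 and 33.6 CPM in DF, 41.7, 46.3 and 61.7 CPM in TF, and 42.3 and 32.9 CPM in TFD. All 8 mutant libraries were below the WT range. The log2 fold change was -1.20 in DF (SE 0.16, adjusted p = 0.00015), -1.02 in TFD (SE 0.18, adjusted p = 0.0016), with -0.62 for TF (SE 0.16, adjusted p = 0.010). The call in TF missed the threshold without TF replicate 1 (log2 fold change -0.51, adjusted p = 0.0526).

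Fech, which puts iron into the finished ring, stood at 93.6, 89.8 and 105.2 CPM in WT. It fell to 29.0, 37.3 and 33.8 CPM in DF (log2 fold change -1.53, SE 0.22, adjusted p = 0.00020) and to 57.3 and 40.9 CPM in TFD (log2 fold change -0.97, SE 0.24, adjusted p = 0.011). The call in TFD was lost without TFD replicate 2 (log2 fold change -0.74, adjusted p = 0.098, with 1 TFD library left and the spread taken from the other genotypes). In TF it was 47.8, 58.9 and 94.7 CPM, with TF replicate 3 inside the WT range and the other 2 below it. This gave a log2 fold change of -0.52 (95% interval -0.98 to -0.06, adjusted p = 0.073), and without TF replicate 3 it was -0.85 (adjusted p = 0.0014). DESeq2 called Fech in TF with all libraries (log2 fold change -0.54, adjusted p = 0.037), as did 3 other settings that kept all libraries.

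Of the 8 enzyme genes, 7 were lower and 1 higher in DF, 4 were lower in TF and 6 were lower in TFD. The 1 higher gene was Alas1, the enzyme of the first step in cells outside the erythroid lineage. It stood at 180.8, 153.0 and 146.2 CPM in WT and 239.0, 257.5 and 214.2 CPM in DF (log2 fold change 0.57, SE 0.17, adjusted p = 0.020). Of all genes tested, 21.0% were called higher in DF and 19.0% in TF. Scaled by library totals, without TMM factors, Alas1 missed the threshold in DF (log2 fold change 0.48, adjusted p = 0.053), and the calls over all genes moved from 2560 higher and 2023 lower to 1926 higher and 2622 lower. It also missed the threshold without WT replicate 2, WT replicate 3, DF replicate 1 or DF replicate 2, with adjusted p values up to 0.097. Alas1 was not called in TF (log2 fold change -0.06, 95% interval -0.43 to 0.31, adjusted p = 0.807) or TFD (0.20, 95% interval -0.21 to 0.60, adjusted p = 0.483).

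Of the remaining enzymes, Cpox and Ppox were lower in all 3 genotypes, and every one of the 8 mutant libraries lay below the WT range for each. Cpox, a mitochondrial oxidase late in the pathway, had the largest fall of the 8 genes in DF, from between 150.4 and 205.9 CPM in WT to between 21.7 and 23.2 CPM (log2 fold change -2.91, SE 0.33, adjusted p = 4.35e-05). Its log2 fold change was -1.70 in TFD (adjusted p = 0.0041) and -1.37 in TF (adjusted p = 0.0046). Ppox, the enzyme before Fech, changed less, with log2 fold changes of -0.61 in DF (adjusted p = 0.0067), -0.53 in TFD (adjusted p = 0.033) and -0.52 in TF (adjusted p = 0.018). In TF, the call of Ppox was lost without WT replicate 3, TF replicate 1 or TF replicate 2, with adjusted p values between 0.056 and 0.084. In TFD, it was lost without WT replicate 2, WT replicate 3 or TFD replicate 2, with adjusted p values up to 0.207, and in libraries with fewer than 10000 Xist reads (log2 fold change -0.31, adjusted p = 0.194). Without TFD replicate 2, and in the libraries with fewer Xist reads, TFD is 1 library and the spread comes from the other genotypes.

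**Figure D2:**
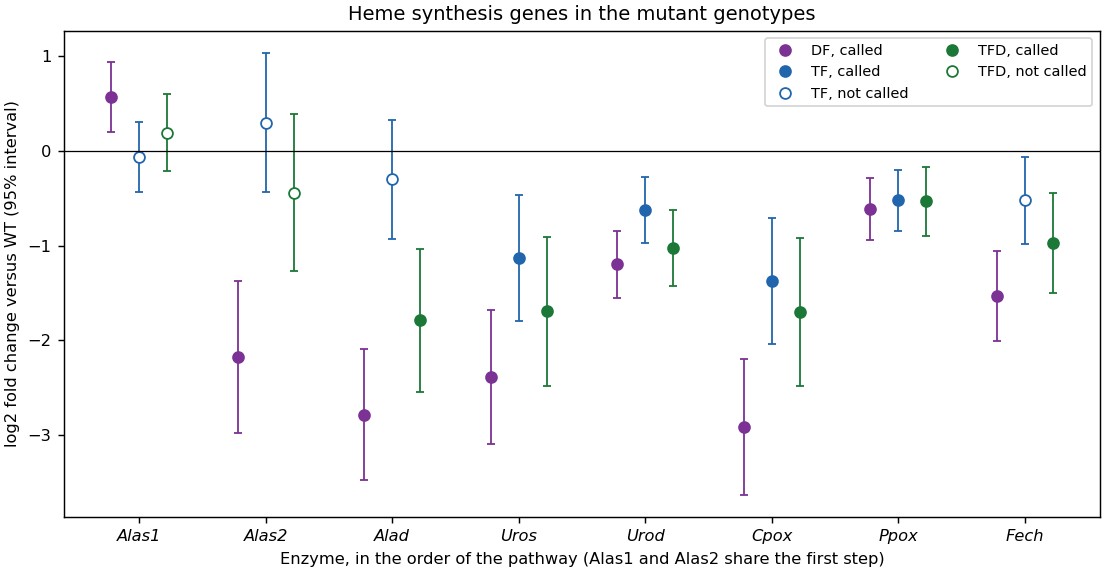
Log2 fold change versus WT of the 8 enzyme genes in pathway order, with 95% intervals from the edgeR model. Filled points were called at an adjusted p under 0.05 and open points were not. The interval of Alas2 includes 0 in TF and TFD, whereas Uros, Urod, Cpox and Ppox are filled in all 3 genotypes.

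The next question was whether the 2 double mutants differed from each other. In DF, 4 of the 5 members were lower than in TF, where 4.27% of all genes were called lower and 1.67% higher. The counts over all genes were 520 lower and 203 higher, and 659 lower and 106 higher with scaling by library totals. Alas2 was lower by 2.47 on the log2 scale (log2 fold change -2.47, SE 0.37, adjusted p = 0.0038) and Alad by about as much (-2.48, SE 0.32, adjusted p = 0.0024). Uros (-1.25, SE 0.33, adjusted p = 0.043) and Fech (-1.01, SE 0.22, adjusted p = 0.020) followed. The call of Uros was lost with limma (adjusted p = 0.066), with a covariate for the 3 libraries high in Xist (adjusted p = 0.079), in a fit of DF and TF alone (adjusted p = 0.090) and in libraries with fewer than 10000 Xist reads (log2 fold change -0.63, adjusted p = 0.051). Urod was at -0.58 (95% interval -0.93 to -0.22, adjusted p = 0.058), although its highest DF library, at 37.4 CPM, was below its lowest TF library, at 41.7 CPM. Urod was called by DESeq2 (adjusted p = 0.012), with scaling by library totals (adjusted p = 0.036), with RLE factors (adjusted p = 0.047) and without TF replicate 1 (adjusted p = 0.042). Cpox (-1.55, adjusted p = 0.016) was lower in DF and Alas1 was higher (0.63, adjusted p = 0.049). Ppox was not called (-0.09, 95% interval -0.42 to 0.23, adjusted p = 0.826). Without any 1 of the 3 DF libraries, 2 members were still called, Alas2 and Alad, and Uros and Fech missed the threshold. Without TF replicate 3, the differences of Alas2 (-1.90, adjusted p = 0.0012), Alad (-1.96, adjusted p = 0.00019) and Fech (-0.68, adjusted p = 0.041) were still called, and that of Uros was -0.60 (adjusted p = 0.076).

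Differences between the triple mutant and either double mutant were not resolved for the members. For DF versus TFD, 0% of genes were called by edgeR, although 1727 had an unadjusted p under 0.05, and DESeq2 called 155 lower and 103 higher. Of the 5 members, 0 were called and 3 had an unadjusted p under 0.05. Alas2 had a log2 fold change of -1.73 in DF versus TFD (SE 0.40, 95% interval -2.60 to -0.87, adjusted p = 0.110), and the libraries did not overlap. This difference was called by DESeq2 (adjusted p = 0.031) and in a fit of DF and TFD alone (adjusted p = 0.013). Without TF replicate 3, which enters the shared estimate of spread, 3 of the 5 members were called. For TF versus TFD, 0.0164% of genes were called by edgeR with 1068 at an unadjusted p under 0.05. Of the 5 members, 0 were called and 2 had an unadjusted p under 0.05. Alad had a log2 fold change of 1.49, higher in TF (95% interval 0.74 to 2.23, adjusted p = 0.201), with no overlap of the libraries, and was the 1 member that DESeq2 called (adjusted p = 0.0021). With a library left out, this log2 fold change of Alad ranged from 0.96 to 1.77, and its lowest value over all settings was 0.83.

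The order of the 8 genes by level differed between genotypes. On the RPKM scale, which divides CPM by the exon length and so allows genes to be compared, Urod led in WT, at 56.3 to 72.4 RPKM. It was followed by Cpox (47.2 to 64.7) and Alas1 (44.9 to 55.5), and neighbours among these 3 overlapped. Fech (31.0 to 36.3) and Ppox (26.1 to 30.4) came next without overlap. Alas2 (18.2 to 22.7), Uros (16.9 to 20.2) and Alad (14.8 to 21.8) were the lowest and overlapped one another. In DF, Alas1 led at 65.7 to 79.0 RPKM, above Urod at 24.6 to 31.2 RPKM, and Cpox had dropped to 6.81 to 7.27 RPKM. Alad was last in every DF library, at 2.28 to 2.81 RPKM, below Uros (3.24 to 3.63) and Alas2 (3.29 to 5.45). In TF, Uros was last in every library, at 4.50, 5.97 and 14.4 RPKM, and Alas1 led except in TF replicate 3, where Urod did.

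The balance of the 2 enzymes of the first step followed from these levels. Alas2 made up 24.7%, 31.6% and 33.6% of the summed RPKM of Alas1 and Alas2 in WT. The share was 4.29%, 6.10% and 7.66% in DF, 24.4%, 25.5% and 52.9% in TF, and 23.2% and 18.6% in TFD. DF lay below all other libraries, and TF replicate 3 above all others. The ratio of the first to the last enzyme also differed. Alas2 minus Fech in log2 CPM was between -1.38 and -1.06 in WT, between -2.15 and -1.64 in DF, between -0.74 and -0.16 in TF, and -0.53 and -0.98 in TFD, with no overlap of WT with any mutant genotype. This pair was chosen after the values were seen and the differences were not tested.

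Relative to genes of the red cell, Alas2 was higher in the mutants than in WT. The ratio of Alas2 to Slc4a1, the anion exchanger of the red cell membrane, in RPKM was 0.323, 0.421 and 0.370 in WT. It was 0.582, 0.589 and 0.553 in DF, 0.568, 0.564 and 0.516 in TF, and 0.503 and 0.493 in TFD. All 8 mutant libraries, TF replicate 3 included, were above all 3 WT libraries. The log2 fold change of Alas2 was above that of 14 of the 15 red cell markers in DF, the exception being Tfrc, and above that of all 15 in TF and in TFD. In DF, Alad and Uros were also above 14 of the 15, and Urod and Fech above all 15. In TF and in TFD, Urod and Fech were above 14, the exception being Slc4a1. Alad was above 14 in TF and 10 in TFD, and Uros above 8 in TF and 12 in TFD. On the log2 RPKM scale, Alas2 minus the mean of the 15 markers was -1.12 to -0.87 in WT, 0.45 to 0.77 in DF, 0.28 to 0.67 in TF and 0.28 to 0.73 in TFD. These ratios were chosen after the values were seen, so they are given with no test.

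**Figure D3:**
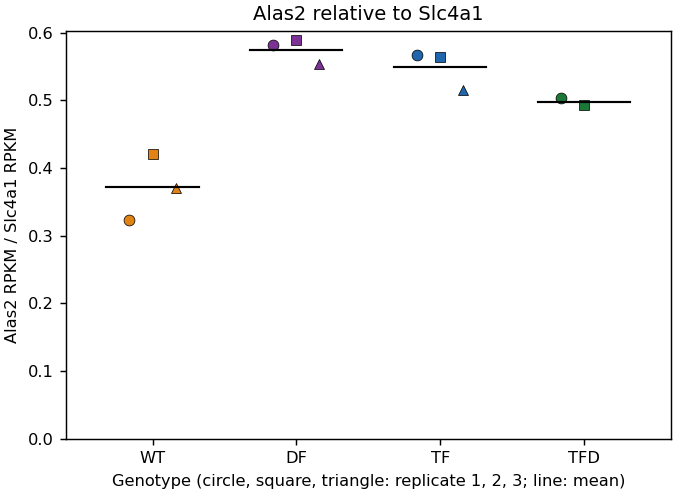
Ratio of Alas2 to Slc4a1 in RPKM in each library, on a linear axis from 0, by genotype. Points are libraries and lines are group means. The mutant libraries lie between 0.493 and 0.589, above the WT libraries at 0.323 to 0.421.

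The other members differed in which genotypes departed from WT on this scale. For Uros, the difference from the marker mean was -1.28 to -1.16 in WT and -1.29 to -1.01 in TF, which overlapped, against 0.03 to 0.59 in DF and -1.04 to -0.71 in TFD. For Alad it was -1.69 to -0.86 in WT and -1.15 to -0.94 in TFD, which overlapped, and -0.64 to -0.12 in TF and -0.52 to 0.22 in DF. Fech was above its WT range of -0.44 to -0.23 in all 3 mutant genotypes, with 1.76 to 2.09 in DF. Urod was above its WT range of 0.51 to 0.74 in DF (3.02 to 3.69) and TFD (1.55 to 1.67) and overlapped it in TF (0.55 to 1.94). Both are expressed in many cell types. How far RNA of other cell types enters these differences was not tested.

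**Figure D4:**
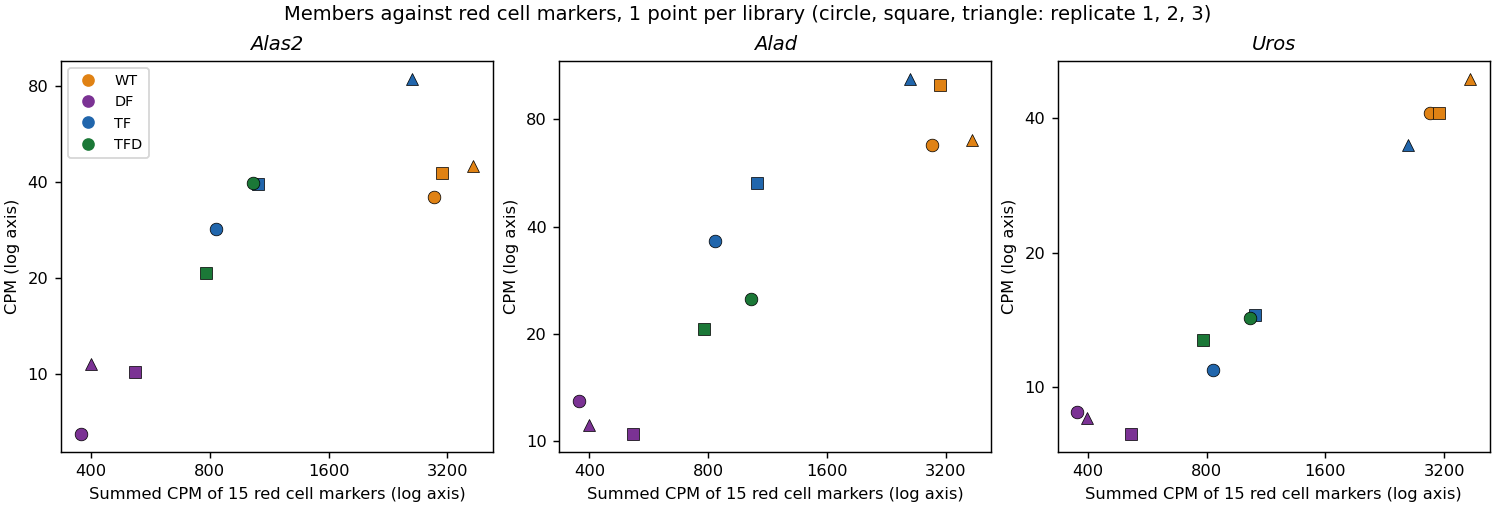
CPM of Alas2, Alad and Uros against the summed CPM of the 15 red cell markers in each library, on log axes. Colours are genotypes and symbols are replicates. TF replicate 3 lies near the WT libraries on the horizontal axis, at 2596 CPM, and above all of them for Alas2 (84.5 CPM) and Alad (103.9 CPM).

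Across the 11 libraries, the log2 CPM of Alas2 went most closely with that of Gm867 (Pearson r = 0.985), Slc4a1 (0.980) and Apol8 (0.970), followed by Ypel4, St5, Slfn14, Sowaha and Tmod1 (0.960). Tmod1 encodes a cap of actin filaments in the red cell skeleton. These 8 genes were each called lower in DF, with log2 fold changes between -3.43 and -1.81, and none was called in TF or TFD. They were picked for following Alas2 in these same libraries, so sharing its calls largely follows from the choice. Among the pathway genes, r with Alas2 was 0.90 for Alad, 0.89 for Fech, 0.79 for Cpox, 0.78 for Uros, 0.72 for Urod and 0.61 for Ppox, and -0.75 for Alas1. The points share their genotypes and the scaling of each library, so these values describe the libraries and no p value is given.

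Genes that work around the pathway moved with it in part. Of 13 measured genes that supply its substrates or build its mitochondrial partners, 8 were lower and 1 higher in DF, 4 were lower in TF and 6 were lower in TFD. Abcb6, a transporter that has been linked to the uptake of porphyrins, had the lowest mean, with log2 fold changes of -1.88 in DF (adjusted p = 0.00024), -1.49 in TFD (adjusted p = 0.0036) and -1.05 in TF (adjusted p = 0.0088). The 1 higher gene was Slc25a39, a mitochondrial carrier of glutathione, at 0.40 in DF (adjusted p = 0.040), and at 0.36 in both TF (adjusted p = 0.067) and TFD (adjusted p = 0.105). Of 6 genes of heme export and breakdown, 3 were lower and 1 higher in DF, 2 lower and 1 higher in TF, and 3 lower in TFD. Blvrb, a reductase of biliverdin and flavins that is abundant in red cells, was at -3.16 in DF (adjusted p = 3.70e-05), -2.25 in TFD (adjusted p = 0.0011) and -1.18 in TF (adjusted p = 0.012). Hmox2, the constitutive heme oxygenase, was at 0.29 in DF (adjusted p = 0.038), 0.17 in TFD (adjusted p = 0.306) and 0.45 in TF (adjusted p = 0.0048).

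Of 5 genes that sense heme or iron or regulate the response to them, 0 were called by edgeR in any genotype versus WT, with 1 at an unadjusted p under 0.05 in DF, 0 in TF and 1 in TFD. Bach1, a heme-binding repressor of globin genes and Hmox1, had the highest mean, with log2 fold changes of 0.20 in DF (adjusted p = 0.220), 0.35 in TFD (95% interval 0.04 to 0.65, adjusted p = 0.086) and 0.17 in TF (adjusted p = 0.304). Eif2ak1, the heme-regulated kinase that slows translation in erythroblasts when heme is short, had the lowest, with -0.27 in DF (adjusted p = 0.094), -0.11 in TFD (adjusted p = 0.608) and -0.06 in TF (adjusted p = 0.711).

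Erythroid transcription factors, which include those that act on heme and globin genes, were also compared. Of 9 measured, 7 were lower and 1 higher in DF, 5 were lower in TF and 5 in TFD. Gata1, the master regulator of the erythroid lineage, had log2 fold changes of -3.87 in DF (SE 0.48, adjusted p = 7.46e-05), -2.05 in TFD (SE 0.48, adjusted p = 0.0073), with -1.30 for TF (SE 0.40, adjusted p = 0.025). Klf1, which switches on adult globin and several heme synthesis genes, had -4.51 in DF (SE 0.55, adjusted p = 6.81e-05), -2.78 in TFD (SE 0.57, adjusted p = 0.0033), with -1.48 for TF (SE 0.45, adjusted p = 0.023). In TF both genes overlapped WT. Gata1 ran from 5.33 to 24.0 CPM in TF and 23.0 to 39.3 CPM in WT. Klf1 ran from 9.13 to 49.3 CPM in TF and 45.0 to 87.4 CPM in WT. Fits of Gata1 and Klf1 without TF replicate 3 are not given here. The 1 higher factor was Nfe2, which is also made in megakaryocytes and myeloid cells, at 0.52 in DF (adjusted p = 0.014), 0.19 in TFD (adjusted p = 0.419) and 0.21 in TF (adjusted p = 0.273).

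Of the 15 red cell markers, 15 were lower in DF, 12 in TF and 14 in TFD. Car1, the red cell carbonic anhydrase, had the lowest mean, with log2 fold changes of -4.83 in DF (adjusted p = 1.92e-05), -3.09 in TFD (adjusted p = 0.00081) and -1.51 in TF (adjusted p = 0.011). Tfrc, the transferrin receptor that brings in iron, had the highest, with -1.60 in DF (adjusted p = 0.00053), -1.38 in TFD (adjusted p = 0.0049) and -0.89 in TF (adjusted p = 0.018). Slc4a1 was called in DF (-2.81, adjusted p = 0.00016) and not in TF (-0.24, 95% interval -1.01 to 0.54, adjusted p = 0.636) or TFD (-0.88, 95% interval -1.77 to 0.01, adjusted p = 0.136). Alas2 and Slc4a1 were thus called in the same 1 of the 3 genotypes. Slc4a1 ran from 115.5 to 376.6 CPM in TF, against 234.4 to 279.3 CPM in WT. A fit of Slc4a1 without TF replicate 3 is not given here. The part of the red cell marker levels in the differences of the heme synthesis genes was not tested.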

How the data were processed

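The values come from 11 libraries, assigned to genotypes by their labels. The authors aligned reads to mm10 with STAR, kept unique alignments, assigned them to refGene genes with featureCounts (versions not given in the sources used here) and left out genes that did not pass 0.5 CPM in over 3 samples. The deposited counts are whole reads, not normalised. The authors also deposited log2 CPM, which edgeR's cpm function (prior count 0.25) gives from the counts to within 5.00e-09, and a further column with the exon length of each gene, used here for RPKM. The use of strand in counting is not stated. Total RNA libraries were made after globin mRNA was removed, so globin levels would not reflect the BM.

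All tests used these counts for the 12175 genes that passed 0.5 CPM in over 3 of the libraries here (24 removed), in R 4.3.3 with edgeR 4.0.16, TMM factors and the quasi-likelihood F test with a mean per genotype. Benjamini-Hochberg adjustment covered all genes tested in each of 6 comparisons, and calls needed an adjusted p under 0.05. Alternatives were DESeq2 1.42.0, the authors' own test, limma 3.58.1 on log2(CPM + 1), other scalings, filters and samples, a covariate that marks libraries with 10000 or more Xist reads, and each library left out in turn. Procedures were tested on simulated data. Figures were drawn with matplotlib 3.10.9 in Python 3.11.15. Depth was between 8274153 and 15900904 reads per library, and there were 2 or 3 libraries per genotype.

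Genes named were the 9 listed where present, other heme synthesis enzymes, the genes with the highest and lowest mean log2 fold change over DF, TF and TFD in each other list, Gata1, Klf1 and Slc4a1, and the 8 genes most correlated with Alas2. Not every gene so chosen is given here. The members and lists were chosen with earlier results of these data known. Promoter sequences are from RefSeq (GRCm38.p6). The Alas2 ratios and the Alas2 and Fech pair were picked after the values were seen.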

Additional observations from a re-analysis of the deposited data

Results flagged for a closer look

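The change versus WT differed between DF and TF, which is the same as the difference between these 2 genotypes, in 4 members by edgeR's quasi-likelihood test. The log2 fold change of DF versus TF was -2.47 for Alas2 (adjusted p = 0.0038) and -2.48 for Alad (adjusted p = 0.0024), with every DF library below every TF library. It was -1.25 for Uros (adjusted p = 0.043) and -1.01 for Fech (adjusted p = 0.020), again with no overlap of the 3 DF and 3 TF libraries. Of all genes, 723 were called in this comparison, and the share with no overlap of libraries was not counted. TF replicate 3 was the highest TF library for all 4 genes, and without it the differences were -1.90, -1.96, -0.60 and -0.68, of which that of Uros was not called.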

How the results depend on the processing

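Of 606 repeated values of single genes, 546 kept their direction and side of the threshold, 27 lost and 21 gained a call, and 12 changed sign, none of these 12 past the threshold. All 5 members were called in DF versus WT under every setting run. For TF versus WT, 2 members were called, 4 in libraries with fewer than 10000 Xist reads, and between 1 and 4 with a library left out (4 without TF replicate 3, 1 without TF replicate 1 or 2). For TFD versus WT the range was 3 to 4. For DF versus TF, 4 were called and between 2 and 5 with a library left out (2 without any DF library). For DF versus TFD, 0 were called by edgeR, 1 by DESeq2, 2 in a fit of the groups compared, 3 in libraries with fewer than 10000 Xist reads and 0 to 3 with a library left out (3 without TF replicate 3). For TF versus TFD, 0 were called and 1 by DESeq2. Over all genes, DF versus TFD had 0 calls, 155 lower and 103 higher by DESeq2, 112 and 26 in the groups compared, 139 and 10 in libraries with few Xist reads, 173 and 53 without TF replicate 3, and 149 and 238 without TFD replicate 1. TF versus TFD had 1 lower and 1 higher, 22 and 109 by DESeq2, 4 and 18 with the Xist term, and 9 and 6 in libraries with few Xist reads. In libraries with few Xist reads, these log2 fold changes changed sign: Alas2 in TF versus WT (-0.22), Alas1 in TF versus WT (0.00061), Alas2 in TFD versus WT (0.010), and Alas2 (-0.23), Uros (-0.17) and Fech (-0.11) in TF versus TFD. With a library left out, Alas2 in TF versus WT ranged from -0.28 to 0.59, Alas1 from -0.25 to 0.070 in TF and -0.10 to 0.44 in TFD versus WT, Urod in DF versus TFD from -0.37 to 0.025, and Uros in TF versus TFD from -0.093 to 0.86. With either TFD library left out, and in libraries with few Xist reads, TFD is 1 library that is assumed to vary like the other groups. The cause was not tested. Replicate numbers were not used to pair the libraries in the main tests. Over 15 pairs of libraries with the same number, deviations correlated between -0.30 and 0.25, with 3 over 0.1. Over 30 pairs with unlike numbers they correlated between -0.22 and 0.30, with 7 over 0.1. Deviations of the 2 TFD libraries mirror each other, so these values cannot exclude a pairing. With the replicate block, 1 member (Alas2) was called in DF versus TFD, where 34 genes were called lower and 8 higher, and calls were gained for Fech in TF versus WT and Urod in DF versus TF and lost for Ppox in TFD versus WT. Scaling without the globin genes and the share of alpha globin were not run.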
